A study of Mus musculus with 13 samples.

Results

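The matrix metalloproteinases (MMPs), the ADAMTS proteinases and the tissue inhibitors of metalloproteinases (TIMPs) were followed through development of the mouse submandibular gland, a major salivary gland. Members were all genes whose symbol is Mmp or Adamts with a number, with a letter a or b allowed after an Mmp number, or Timp with a number. This gave 46 of the 23364 genes in the files, namely 23 Mmp, 19 Adamts and 4 Timp genes. The rule uses symbols and no measured value, but it was set with earlier results of these data known. RNA-seq of whole glands from C57BL/6 mice covered 13 samples, with 3 at E14.5 (E, embryonic day) and 2 at every other time point, namely E16.5, E18.5, P5 (P, postnatal day), 4 weeks (4wk) and 12 weeks (12wk). All animals were of this strain and carried no named mutation or treatment. The 7 samples from before birth formed the embryo stage, and the 4 samples at 4wk and 12wk the adult stage. Every embryonic sample was a pool of glands from several animals, and the adult glands were from males, whereas sex was not determined for embryos and P5 pups. Levels are given as FPKM, reads scaled to the length of the gene and to the total reads on genes, so that levels of different genes can be set side by side within a sample.

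MMPs are zinc-dependent enzymes that cut collagens, fibronectin, laminins and other matrix proteins, and most are secreted as inactive forms that another proteinase must cut. ADAMTS enzymes are secreted relatives that bind the matrix and cut proteoglycans such as versican, trim procollagens, or act on fibrillin microfibrils. TIMPs bind the active sites of MMPs, and TIMP3 also blocks ADAMTS enzymes. Matrix remodelling by MMPs is known to take part in cleft and bud formation of branching salivary epithelium.

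Between 5817081 and 48311700 reads fell on genes in a sample, with a median of 26729280. The lowest depths were both at 4wk, where 21 and 13 members were at 0, against 4 to 8 members in each of the other samples. The 10 most abundant genes held 5.9 to 9.3% of the FPKM total at E14.5 and E16.5, 14.4% in E18.5 replicate 1, 29.2 and 31.1% in P5 samples, 60.3 and 61.1% in 4wk samples, and 49.9 and 48.1% in 12wk samples. A gene with a constant share of the remaining RNA therefore has a lower FPKM in the adult. The median of all genes tested was -0.75 (log2 fold change) in adult against embryo as deposited, and -0.08 after division by median-of-ratios factors, which are set by the genes present in every sample. Changes are given on the deposited scale, and members whose call differs after this rescaling are named. Among markers of gland epithelium, Aqp5, the water channel of acinar cells, was at 137 to 262 FPKM in the adult. Cdh1, another of these markers, was at 44.6 to 57.6 FPKM there. The library labelled E14.5 replicate 1 stood apart from the other E14.5 samples in cartilage genes, with 142 FPKM of Col2a1 against 2.87 and 4.04. The summed level of 6 skeletal muscle genes was 187 to 1190 FPKM at E14.5 and E16.5, and 1.26 to 41.0 FPKM later.

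Of the 46 members, 34 reached 1 FPKM in at least 1 sample and were tested. The 12 that did not were Mmp1a, Mmp1b, Mmp7, Mmp10, Mmp12, Mmp13, Mmp20, Mmp21, Mmp24, Mmp25, Mmp27 and Adamts13, none of which passed 0.846 FPKM in any sample. Of these, 8 lie in a cluster of 10 Mmp genes that spans 427 kb of chromosome 9 (chr9:7272514-7699585, mm9), and only Mmp3 and Mmp8 of this cluster were tested. Mmp1a and Mmp10 had 0 reads in all 13 samples. Of the 13 Mmp genes outside the cluster, 10 were tested. The summed level of the cluster was on average 0.388 FPKM at E14.5, 1.41 to 2.05 FPKM from E16.5 to P5, 4.52 FPKM at 4wk and 1.24 FPKM at 12wk. The Mmp genes outside it summed to between 27.8 and 280 FPKM in a sample.

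The cluster genes shared features of promoter sequence. RefSeq promoters of assembly GRCm38.p6, 250 bases before each start, were matched to 32 of the 46 members and placed on mm9 by exact sequence match, giving 35 promoters. A site for the AP-1 factors, TGANTCA, which reads alike on both strands, was in 6.75% of 32851 promoters of all genes. It was found in 8 member genes, all in the cluster (Mmp1a, Mmp1b, Mmp3, Mmp7, Mmp10, Mmp12, Mmp13 and Mmp20). The TATA box TATAAA, searched on the strand of the gene, was in 7.59% of all promoters, in 7 genes of the cluster and in 2 matched members outside it, Mmp21 and Adamts1. The GC box GGGCGG, on either strand, was in 32.7% of all promoters, in 0 of the 10 genes of the cluster and in 16 of the 22 matched members outside it. The motifs overlapped each other nowhere in the sequences printed below, where capitals mark the 3 motifs. The first 4 lines are the 100 bases before the start of cluster genes, and show that Mmp3, which was expressed, and Mmp10, Mmp13 and Mmp1a, which were barely or not detected, all hold an AP-1 site followed by a TATA box, at positions that differ between the genes. The last 3 lines are those of Mmp14, the most abundant MMP gene of the embryo, and of Adamts2 and Timp3, which were highest at 4wk and at 12wk. The line of Timp3 has no capitals, because the GC box counted for its promoter of 250 bases does not lie within the 100 bases printed.
Mmp3 (chr9:7445722-7445821, mm9, plus strand): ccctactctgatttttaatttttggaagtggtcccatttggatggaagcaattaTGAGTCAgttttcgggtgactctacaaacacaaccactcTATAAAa
Mmp10 (chr9:7502242-7502341, mm9, plus strand): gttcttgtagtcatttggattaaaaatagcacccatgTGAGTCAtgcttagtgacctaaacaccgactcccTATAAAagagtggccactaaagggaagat
Mmp13 (chr9:7272414-7272513, mm9, plus strand): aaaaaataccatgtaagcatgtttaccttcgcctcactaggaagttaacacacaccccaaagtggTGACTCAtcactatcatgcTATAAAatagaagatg
Mmp1a (chr9:7464041-7464140, mm9, plus strand): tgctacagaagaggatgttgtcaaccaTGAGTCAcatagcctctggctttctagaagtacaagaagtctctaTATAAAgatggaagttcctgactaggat
Mmp14 (chr14:55050335-55050434, mm9, plus strand): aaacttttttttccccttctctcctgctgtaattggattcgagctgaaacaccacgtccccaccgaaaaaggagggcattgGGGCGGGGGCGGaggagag
Adamts2 (chr11:50415486-50415585, mm9, plus strand): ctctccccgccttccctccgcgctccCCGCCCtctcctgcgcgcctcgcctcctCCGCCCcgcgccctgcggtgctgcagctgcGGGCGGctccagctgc
Timp3 (chr10:85763017-85763116, mm9, plus strand): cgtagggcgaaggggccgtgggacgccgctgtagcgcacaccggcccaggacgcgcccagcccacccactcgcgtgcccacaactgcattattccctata
The cluster windows held 38 to 41% G and C, against 54% in Mmp14, 68% in Timp3 and 80% in Adamts2. A match of these letters describes the sequence and does not show a site in use.

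By the highest mean over the 6 time points, 20 of the 34 tested members peaked at E14.5, a share of 58.8%, where 39.1% of all 14650 genes tested did so. After rescaling 19 members peaked there, 55.9% against 29.6% of all genes. As deposited, 1 member peaked at E16.5 (Mmp8), 4 at E18.5 (Mmp19, Mmp23, Adamts5 and Adamts16) and 5 at P5 (Mmp2, Mmp15, Mmp28, Adamts10 and Timp4). Mmp3 and Adamts2 peaked at 4wk, and Mmp9 and Timp3 at 12wk. The heat map of the members by sample shows lower values toward the right in most ADAMTS rows and in Mmp14 and Mmp16, and the highest values of Timp3 at 12wk.

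**Figure D1:**
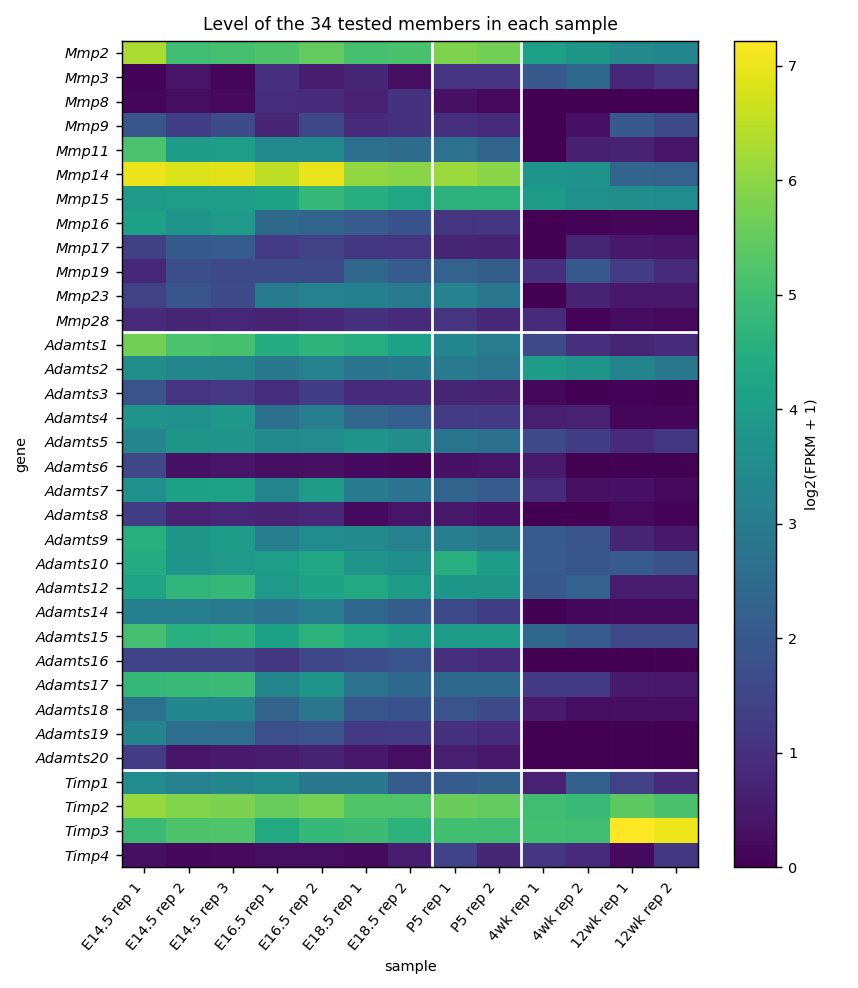
Heat map of log2(FPKM + 1) for the 34 tested members (rows, grouped as Mmp, Adamts and Timp) in the 13 samples (columns, by age; white lines separate embryo, P5 and adult, and the 3 families). Most Adamts rows, with Adamts2 an exception, are darker in the 4 adult columns than in the embryo, whereas Timp3 is brightest at 12wk.

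To ask how the gland's proteinases and inhibitors change with maturation, stages were compared on log2(FPKM + 1) with limma over all 14650 genes tested. A member was called where its log2 fold change reached 1 in either direction with a Benjamini-Hochberg adjusted p below 0.1. In adult against embryo 21 of the 34 tested members were lower, a share of 61.8%, where 38% of all genes were lower, and 2 were higher, Mmp3 and Timp3, where 5.58% of all genes were higher. After rescaling 18 were lower (14.7% of all genes) and 3 were higher (13.8% of all genes), Adamts2 being the third. The median log2 fold change of the members was -1.71 as deposited and -1.13 rescaled. The members called lower on the deposited scale but not after rescaling were Mmp2, Mmp17 and Adamts3, and the other 18 were lower on both scales. Of these 3, voom on recovered reads, which called 21.6% of all genes lower, called Mmp17 and Adamts3 lower but not Mmp2. The plot of both scales shows that rescaling moved each tested member to the right and turned the sign of Mmp9, Mmp15, Mmp19 and Timp2.

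**Figure D2:**
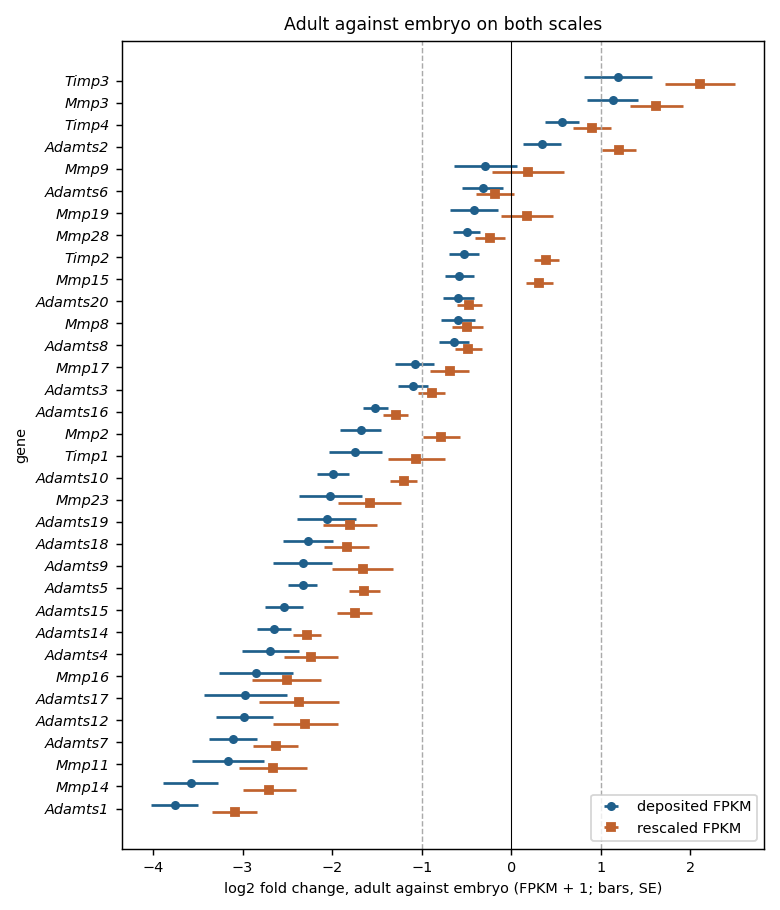
Log2 fold change of the 34 tested members in adult against embryo (horizontal axis, on FPKM + 1; bars, SE of the fit), as deposited (circles) and after median-of-ratios rescaling (squares), with dashed lines at -1 and 1. Adamts1 and Mmp14 lie farthest to the left with -3.76 and -3.58 as deposited, and Timp3 farthest to the right with 1.19.

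Some members were already lower at P5, and more were lower in the adult than at P5. In P5 against embryo 6 members were lower (8.14% of all genes) and 0 were higher (4.14% of all genes, with 13 members at an unadjusted p below 0.05 in either direction and 2 called higher by voom on recovered reads, Mmp3 and Timp4, which called 11.1% of all genes higher). The 6 were Mmp16, Adamts1, Adamts4, Adamts7, Adamts14 and Adamts19, of which 5 were also lower after rescaling (3.9% of all genes) and Adamts19 was not, with 0 higher (5.55% of all genes). In adult against P5 14 were lower (20.8% of all genes), or 25 with a pseudocount of 0.1 (33.5% of all genes), and 0 were higher (2.31% of all genes), whereas voom called 2 higher (8.15% of all genes), and 20 had an unadjusted p below 0.05 in either direction. After rescaling 13 were lower (8.53% of all genes), Adamts17 being lost (-1.26, adjusted p = 0.15). Those higher after rescaling were 2 (6.05% of all genes), Adamts2 and Timp3. Without P5 replicate 2 the members lower at P5 against embryo numbered 3 and those higher 1. Leaving out either 4wk sample made 1 member higher in adult against P5. Here and below, no share of all genes is given for counts at an unadjusted p or with a sample left out. Such counts therefore do not show whether the members differ from all genes.

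Membrane-type MMPs summed to 152 of the 228 FPKM of all MMP genes at E14.5 and to 15.5 of 30.8 FPKM at 12wk. Mmp14 (chr14:55050441-55060095), the membrane enzyme that cuts fibrillar collagen and activates pro-MMP2, was the most abundant MMP gene in the embryo. It was at 128, 112 and 118 FPKM at E14.5, at 90.1 and 125 FPKM at E16.5, and at 65.6 and 60 FPKM at E18.5. At P5 it was at 69.4 and 60.1 FPKM, at 4wk at 12.2 and 12.1 FPKM, and at 12wk at 4.11 and 3.87 FPKM. All 9 embryonic and P5 samples were above all 4 adult samples. Mmp14 fell by 3.58 on the log2 scale in adult against embryo (SE 0.31, adjusted p = 2.7e-07), fell by 2.31 from P5 to 4wk (adjusted p = 1.2e-06) and fell by 1.40 from 4wk to 12wk (adjusted p = 0.00021). Its share of the summed MMP level was 53.1% at E14.5 and 13% at 12wk.

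Mmp16, another membrane-type enzyme, was at 16.3, 12.4 and 14.1 FPKM at E14.5, at 4.60 and 4.05 FPKM at E16.5, at 3.23 and 2.53 FPKM at E18.5 and at 1.14 and 1.22 FPKM at P5. In the adult it had 0 and 0.0549 FPKM at 4wk, and 0.1 and 0.0769 FPKM at 12wk. Each time point up to P5 lay below the one before it with no overlap, and Mmp16 fell by 1.51 on the log2 scale from E14.5 to E16.5 alone (SE 0.15, adjusted p = 0.00012). Mmp17, which is anchored by a lipid, was at 1.17 to 3.32 FPKM in the embryo (median 1.59), 0.670 and 0.612 FPKM at P5, and 0, 0.684, 0.407 and 0.363 FPKM in the adult. Its log2 fold change in adult against embryo was -1.08 (adjusted p = 0.00044) as deposited and -0.69 rescaled, so it did not pass on both scales of FPKM + 1. Voom called Mmp17 lower there (-1.83, adjusted p = 0.04). Mmp15 behaved differently from these, with 14 to 26.8 FPKM in the embryo (median 17.1), 23.9 in both P5 samples, and 14.3, 11.3, 11.2 and 10.5 FPKM in the adult. The embryonic and adult ranges overlapped, and its log2 fold change of -0.58 turned to 0.31 after rescaling, so no direction is given.

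Both gelatinases cut denatured collagen and basement membrane collagen. Mmp2 (chr8:95351227-95377316) was at 77.8, 31.2 and 32.9 FPKM at E14.5, at 32.8 to 43.5 FPKM at E16.5 and E18.5, at 55.3 and 50.1 FPKM at P5, at 15.7 and 13 FPKM at 4wk, and at 9.60 and 8.91 FPKM at 12wk. The high E14.5 value belongs to the sample with cartilage RNA, whose part in it was not tested, and P5 was above every other embryonic sample. From P5 to the adult Mmp2 fell by 2.1 on the log2 scale (SE 0.32, adjusted p = 0.0003) and fell by 1.46 after rescaling. From embryo to adult it fell by 1.68 (adjusted p = 1.6e-05), and its -0.78 after rescaling was not called. Mmp9 was not picked by the rule for named genes and is described because its adult samples split by age. It was at 1.52 to 2.71 FPKM at E14.5, 0.720 to 1.94 FPKM at E16.5 and E18.5, and 1.01 and 0.839 FPKM at P5. At 4wk it was at 0 and 0.280 FPKM (0 and 7 reads, where 3 reads in the first sample would be 0.164 FPKM), and at 12wk at 3.07 and 2.21 FPKM. Mmp9 rose by 1.67 on the log2 scale from 4wk to 12wk (SE 0.27, adjusted p = 0.0028), while adult against embryo gave -0.29 (adjusted p = 0.46).

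Among stromelysins, Mmp11, a stromal enzyme that is activated inside the cell, and Mmp3 went in opposite directions. Mmp11 was at 35.1 FPKM in E14.5 replicate 1 and at most 15.2 FPKM in the other E14.5 samples, at 9.95 and 9.81 FPKM at E16.5, at 5.23 and 4.81 FPKM at E18.5, and at 5.43 and 4.04 FPKM at P5. Its adult samples had 0, 0.559, 0.612 and 0.360 FPKM, below all others. From embryo to adult Mmp11 fell by 3.16 on the log2 scale (SE 0.40, adjusted p = 7.6e-06). Mmp3 (chr9:7445822-7455972), which cuts many matrix proteins and activates other MMPs, was at 0.0576 to 0.981 FPKM in the embryo (median 0.329), 1.12 and 1.15 FPKM at P5, with 3.06 and 4.40 FPKM in the 4wk samples and 0.738 and 1.17 FPKM in those of 12wk. It was highest at 4wk, and the 12wk samples overlapped those of the embryo. Mmp3 rose by 1.13 from P5 to 4wk (SE 0.23, adjusted p = 0.0017) and fell by 1.27 from 4wk to 12wk (adjusted p = 0.0051). The 4wk values rest on 32 and 63 reads. The call in adult against embryo (log2 fold change 1.13, adjusted p = 0.0022) rests on 4wk, since it was 0.99 without 4wk replicate 1, 0.85 without 4wk replicate 2 and 0.50 (adjusted p = 0.068) with 12wk as the only adult age.

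Mmp23 and Mmp8 were at their lowest embryonic levels at E14.5. Mmp23, a small MMP that is held in the membrane until it is cut, was at 1.63, 2.64 and 2.19 FPKM at E14.5 and at 6.64 and 7.76 FPKM at E16.5, and stayed between 6.18 and 8.16 FPKM to P5. At 4wk it was at 0 and 0.613 FPKM, and at 12wk at 0.415 and 0.417 FPKM. It was called higher in E16.5 against E14.5 (log2 fold change 1.39, SE 0.22, adjusted p = 0.0019, where 4.17% of all genes were higher), as the only member on FPKM + 1, while voom (7.53% of all genes) and a pseudocount of 0.1 also called Mmp3 and Mmp8 higher there. Mmp23 fell by 2.67 from P5 to 4wk (adjusted p = 1e-05). Mmp8, the collagenase known from neutrophils, was outside the rule for named genes and is given for its adult zeros. It was at 0.0634 to 0.209 FPKM at E14.5, at 0.588 to 1.09 FPKM at E16.5 and E18.5, at 0.253 and 0.126 FPKM at P5, and had 0 reads in all 4 adult samples. There, 3 reads would be 0.210 and 0.154 FPKM at 4wk and 0.0560 and 0.0430 FPKM at 12wk. Its log2 fold change on FPKM + 1 was -0.59 in adult against embryo (adjusted p = 0.012), which is under the size required for a call, while voom (21.6% of all genes) and a pseudocount of 0.1 called it lower. The summed level of 7 neutrophil markers was 43.4 to 89.2 FPKM in the embryo, 23.4 and 36.9 FPKM at P5 and 0 to 1.76 FPKM in the adult, and 5 of the 7 (S100a8, S100a9, Ngp, Camp and Elane) were at 0 in both 4wk samples. Its part in the level of Mmp8 was not tested. Mmp19 and Mmp28, the other tested MMPs, reached at most 4.44 and 1.18 FPKM in any sample. They were called in no stage comparison with a pseudocount of 1 on either FPKM scale, whereas with 0.1 both were called lower in adult against P5. Voom called Mmp28 alone of these lower in adult against P5 (-1.59, adjusted p = 0.037) and in adult against embryo (-1.04, adjusted p = 0.074). A pseudocount of 0.1 also called Mmp28 lower in adult against embryo. Mmp19 and Mmp28 share 23.1% and 12.0% of their exon bases with other genes, where reads on both genes were not counted.

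**Figure D3:**
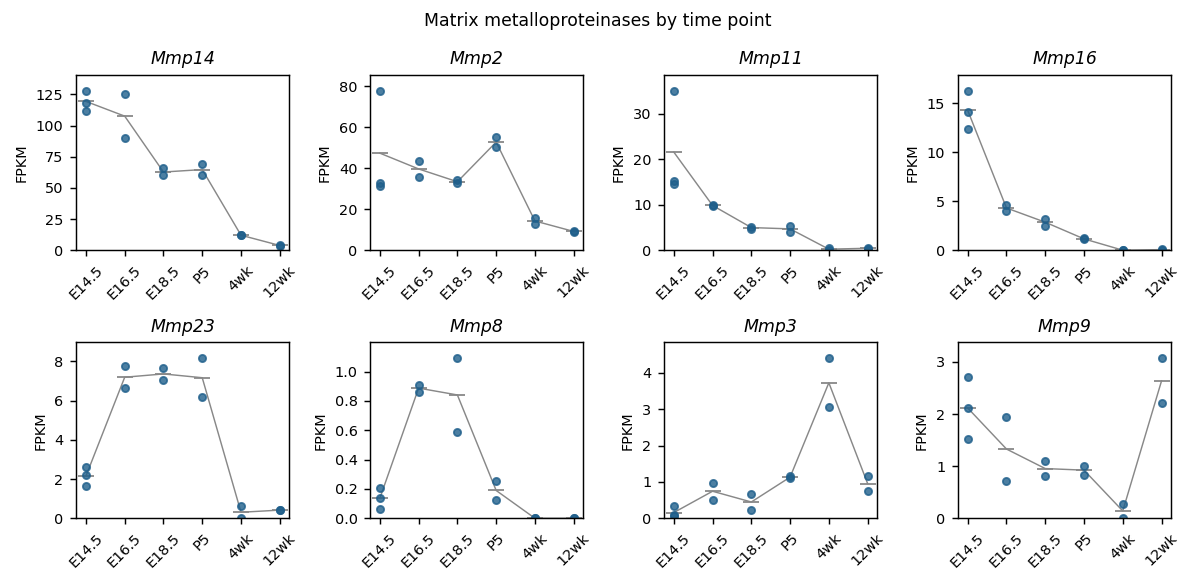
FPKM of 8 Mmp genes (vertical axes, linear from 0) at the 6 time points; points are samples, short bars joined by a line are means. Mmp14, Mmp11 and Mmp16 are highest at E14.5, Mmp23 and Mmp8 lie higher in both E16.5 samples than in the 3 of E14.5, Mmp3 is highest at 4wk (3.06 and 4.40 FPKM) and Mmp9 is lowest at 4wk (0 and 0.280 FPKM).

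Of 18 tested ADAMTS genes, 14 were lower in adult against embryo as deposited and 0 higher, where 38% and 5.58% of all genes were, with a median log2 fold change of -2.30 against -0.75 over all genes. After rescaling 13 were lower and 1 higher, where 14.7% and 13.8% of all genes were, with a median of -1.70 against -0.08. The hyalectanases, which cut versican and aggrecan, summed to 108 FPKM at E14.5, 60.2 FPKM at E18.5, 37.2 FPKM at P5, 10.7 FPKM at 4wk and 4.58 FPKM at 12wk.

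Adamts1 (chr16:85794072-85803358) had the largest log2 fold change of the 34 tested members in adult against embryo on FPKM + 1, a scale that understates the change of genes near 0. It was at 49.9, 35.2 and 34 FPKM at E14.5, at 21.0 and 24.9 FPKM at E16.5, and at 21.4 and 16.4 FPKM at E18.5. After birth it was at 9.15 and 7.39 FPKM at P5, 2.08 and 1.00 FPKM at 4wk and 0.675 and 0.835 FPKM at 12wk. The 3 stages did not overlap, and Adamts1 fell by 1.61 from embryo to P5 (SE 0.34, adjusted p = 0.0056) and fell by 3.76 from embryo to adult (SE 0.26, adjusted p = 4.3e-08). Adamts15 was at 14.7 to 32.6 FPKM in the embryo (median 22.0), 14.3 and 14.2 FPKM at P5, and 4.29, 3.33, 1.99 and 2.01 FPKM in the adult. It was not called in P5 against embryo, and fell by 2.01 from P5 to adult (SE 0.30, adjusted p = 0.00026). Adamts4 was at 11.5 to 13.3 FPKM at E14.5, 5.28 and 7.45 FPKM at E16.5, 4.19 and 3.43 FPKM at E18.5, 1.39 and 1.33 FPKM at P5, and 0.0862 to 0.582 FPKM in the adult, so that no time point overlapped another. Adamts5 was level in the embryo, with 8.77 to 13.1 FPKM (median 10.8), and was at 5.96 and 5.19 FPKM at P5 and 2.23, 1.46, 0.865 and 1.23 FPKM in the adult. It fell by 2.33 from embryo to adult (SE 0.16, adjusted p = 3.8e-08). Adamts9 went from 7.47 to 22.0 FPKM in the embryo (median 10.5) to 7.44 and 6.39 FPKM at P5, 3.30 and 2.60 FPKM at 4wk, and 0.721 and 0.420 FPKM at 12wk, and fell again by 1.33 from 4wk to 12wk (adjusted p = 0.0055). It shares 14.4% of its exon bases with other genes. The other two of the group, Adamts8 and Adamts20, did not pass 1.46 FPKM in any sample and were called lower in adult against embryo by voom and with a pseudocount of 0.1, but not on FPKM + 1.

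The procollagen N-proteinases, which cut the amino-terminal propeptide from fibrillar procollagens, did not move together. Adamts2 (chr11:50415586-50621075) was at 10.9, 8.91 and 8.79 FPKM at E14.5, at 5.86 to 7.95 FPKM at E16.5 and E18.5, at 7.06 and 6.17 FPKM at P5, then at 15 and 12.4 FPKM at 4wk, and at 8.55 and 6.48 FPKM at 12wk. The 4wk samples were above all others and those of 12wk lay within the embryonic range. In adult against embryo the log2 fold change was 0.34 (adjusted p = 0.15) as deposited and 1.20 (adjusted p = 0.00011) rescaled. With 12wk as the only adult age the deposited value was -0.06 (adjusted p = 0.82). Adamts14 was at 7.73, 7.70 and 6.73 FPKM at E14.5, at 3.41 to 7.55 FPKM at E16.5 and E18.5, at 2.1 and 1.54 FPKM at P5, and at 0.0331, 0.121, 0.150 and 0.156 FPKM in the adult. It fell by 1.32 from embryo to P5 (SE 0.25, adjusted p = 0.0031) and fell by 2.65 from embryo to adult (SE 0.19, adjusted p = 5.6e-08). Adamts3, at 0.829 to 2.61 FPKM in the embryo (median 1.16) and 0 to 0.112 FPKM in the adult, had a log2 fold change of -1.10 as deposited and -0.89 rescaled. On FPKM + 1 it passed only on the first scale, whereas voom called it lower (-4.12, adjusted p = 0.00018).

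Adamts7 and Adamts12, known to cut the cartilage matrix protein COMP, fell to low adult levels. Adamts12 was at 17.6, 25.8 and 26.8 FPKM at E14.5, 13.9 to 19.8 FPKM at E16.5 and E18.5, 13.1 and 13.2 FPKM at P5, 2.92 and 3.79 FPKM at 4wk, and 0.463 and 0.457 FPKM at 12wk. It fell by 1.71 from P5 to 4wk (SE 0.21, adjusted p = 8e-05) and fell by 1.57 from 4wk to 12wk (SE 0.21, adjusted p = 0.00091). Adamts7 was at 5.73 FPKM or more in the embryo (median 11.5), 3.95 and 3.24 FPKM at P5, and 0.836, 0.259, 0.283 and 0.132 FPKM in the adult, with no overlap between stages. It fell by 3.11 from embryo to adult (SE 0.27, adjusted p = 2.4e-07).

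In the fibrillin-associated group Adamts17 and Adamts10, both genes of human disorders of connective tissue, had different time courses. Adamts17 was at 26.8, 28.4 and 29.4 FPKM at E14.5, at 8.69 and 12.2 FPKM at E16.5, at 5.61 and 4.48 FPKM at E18.5, at 4.51 and 4.56 FPKM at P5, at 1.34 and 1.33 FPKM at 4wk, and at 0.441 and 0.368 FPKM at 12wk. From E14.5 to E16.5 it fell by 1.37 (SE 0.15, adjusted p = 0.00023). Adamts10 was at 20.9, 12.2 and 13.6 FPKM at E14.5, 11.2 to 18.7 FPKM at E16.5 and E18.5, 22.1 and 14.8 FPKM at P5, and 3.21, 2.84, 3.22 and 2.47 FPKM in the adult. It was not called in P5 against embryo (log2 fold change 0.30, adjusted p = 0.32) and fell by 2.29 from P5 to adult (SE 0.24, adjusted p = 2.4e-05). Adamts19 was at 8.58, 5.11 and 4.98 FPKM at E14.5, 1.35 to 2.57 FPKM at E16.5 and E18.5, 1.06 and 0.869 FPKM at P5, and 0, 0, 0.0295 and 0.0151 FPKM in the adult. Adamts6 was at most 0.428 FPKM in every sample other than E14.5 replicate 1, which had 1.88 FPKM.

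The substrates of Adamts16 and Adamts18 are less well known. Adamts16 was at 1.23 to 1.90 FPKM at E14.5 and E16.5, 2.35 and 2.70 FPKM at E18.5, 0.961 and 0.858 FPKM at P5, and 0, 0, 0.00921 and 0.0354 FPKM in the adult, and fell by 1.52 from embryo to adult (SE 0.14, adjusted p = 3.8e-07). Adamts18 was at 5.63, 8.85 and 9.14 FPKM at E14.5, 2.54 to 6.25 FPKM at E16.5 and E18.5, 2.60 and 2.2 FPKM at P5, and 0.425, 0.207, 0.227 and 0.225 FPKM in the adult, and fell by 2.27 (SE 0.28, adjusted p = 5.2e-06). Neither gene overlapped between embryo and adult.

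**Figure D4:**
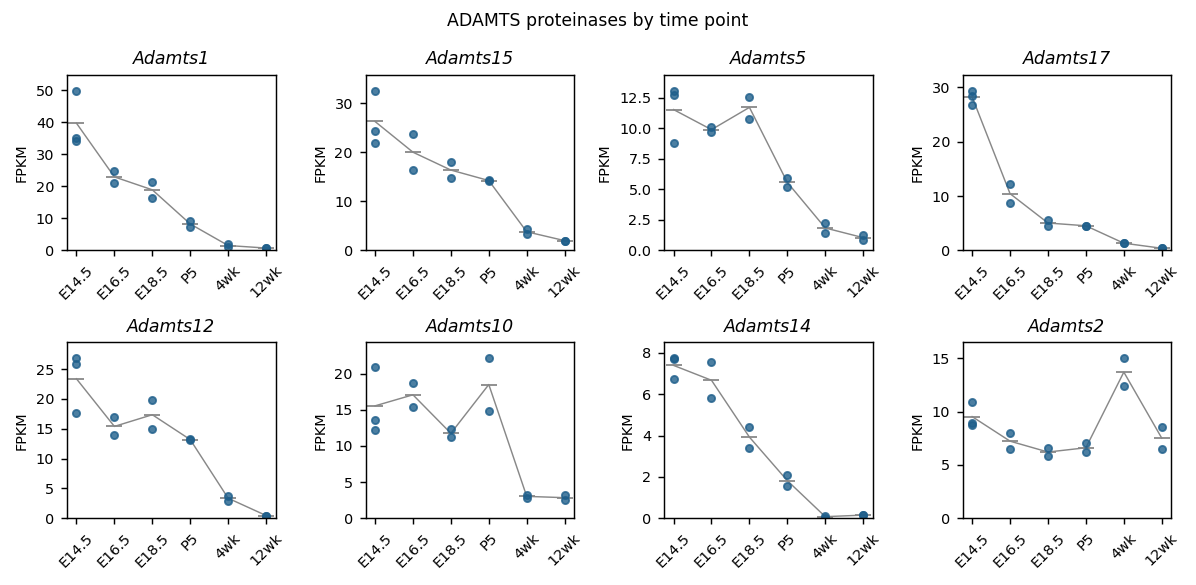
FPKM of 8 Adamts genes (vertical axes, linear from 0) at the 6 time points; points are samples, short bars joined by a line are means. All but Adamts2 are at their lowest in the adult, whereas Adamts2 is highest at 4wk (15 and 12.4 FPKM), and Adamts10 holds its embryonic level at P5 (22.1 and 14.8 FPKM).

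TIMP genes went their own ways. Timp3 (chr10:85763117-85812251), the inhibitor that stays bound to the matrix and also blocks ADAMTS and ADAM enzymes, was at 29.5, 35.5 and 36.9 FPKM at E14.5, 20.0 and 26.9 FPKM at E16.5, 30.1 and 24.4 FPKM at E18.5, 31.6 and 31.4 FPKM at P5, 31.6 and 31.4 FPKM at 4wk, and 148 and 129 FPKM at 12wk. The 12wk samples were above the other 11, which ranged from 20 to 36.9 FPKM. Timp3 rose by 2.1 on the log2 scale from 4wk to 12wk (SE 0.16, adjusted p = 2.9e-05), where 2.68% of all genes were higher and Mmp9 was the only other member. The call in adult against embryo (1.19, SE 0.38, adjusted p = 0.012) rests on 12wk. It was 0.81 without 12wk replicate 1, 0.87 without 12wk replicate 2, and 2.24 with 12wk as the only adult age. Timp3 lies within Syn3, with which it shares 21.3% of its exon bases, and reads there that fell on both genes were not counted.

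Timp2, which inhibits MMP2 and also helps MMP14 to activate it, was high throughout. It was at 67.4, 57.3 and 54.2 FPKM at E14.5, 36.6 to 51.6 FPKM at E16.5 and E18.5, 46.7 and 43.7 FPKM at P5, 30.9 and 28.9 FPKM at 4wk, and 41.1 and 34.3 FPKM at 12wk. The ranges of embryo and adult overlapped, and the log2 fold change of -0.53 (adjusted p = 0.01) turned to 0.39 (adjusted p = 0.028) after rescaling, so no direction is given. Timp1, the soluble inhibitor that is induced in many tissues by cytokines, was at 10.2, 7.98 and 8.70 FPKM at E14.5, 3.26 to 9.73 FPKM at E16.5 and E18.5, 3.30 and 3.73 FPKM at P5, and 0.579, 3.67, 1.65 and 0.869 FPKM in the adult. It fell by 1.74 from embryo to adult (SE 0.30, adjusted p = 0.00012), although 4wk replicate 2 was above the lowest embryonic sample. Timp4 was at 0.111 to 0.501 FPKM in the embryo, 1.74 and 0.703 FPKM at P5, and 1.21, 0.799, 0.162 and 1.27 FPKM in the adult, and was not called on FPKM + 1 over all samples. It was called higher at P5 against embryo by voom, with a pseudocount of 0.1 and without P5 replicate 2. In adult against embryo Timp4 was called higher by voom (2.57, adjusted p = 0.0041, 18% of all genes). A pseudocount of 0.1 called it higher there too (7.46% of all genes).

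The balance of TIMP and MMP RNA shifted after P5. MMP genes summed to 228 FPKM at E14.5, 199 FPKM at E16.5, 140 FPKM at E18.5, 163 FPKM at P5, 47.4 FPKM at 4wk and 30.8 FPKM at 12wk. TIMP genes summed to 103, 80.4, 69.2, 81.4, 64.5 and 178 FPKM at the same time points. The TIMP sum divided by the MMP sum, a ratio within a sample that no scaling of samples changes, was 0.378 to 0.511 in the embryo, 0.484 and 0.518 in P5 glands, 1.35 and 1.37 in those of 4wk, and 5.90 and 5.65 in those of 12wk. It crossed 1 between P5 and 4wk and its mean was 4.25 times as high at 12wk as at 4wk. The time of crossing depends on the enzymes counted. Divided by the MMP and ADAMTS sum together, the TIMP sum gave 0.761 and 0.839 at 4wk, still below 1, and 3.79 and 3.73 at 12wk. This ratio does not mean that every TIMP inhibits every enzyme counted. At 12wk Timp3 made up 77.7% of the TIMP sum, against 33.2% at E14.5. These are ratios of RNA levels, and neither protein nor enzyme activity was measured.

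**Figure D5:**
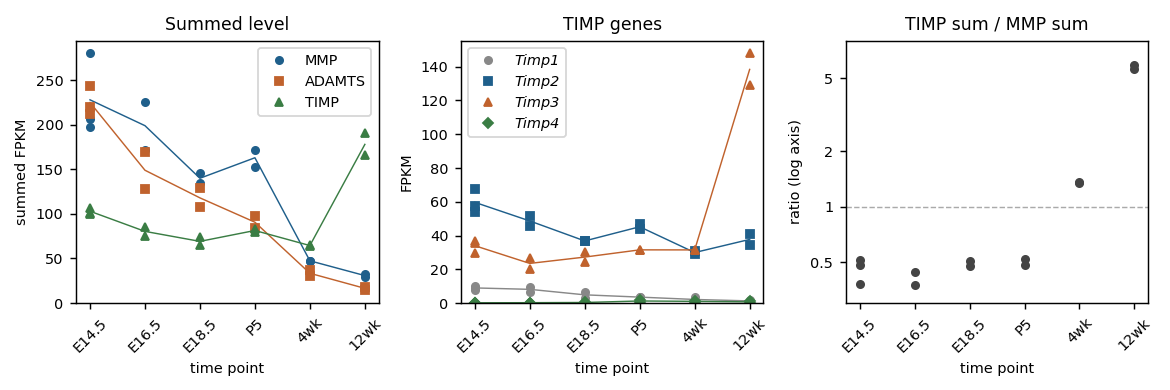
Left, summed FPKM of the MMP, ADAMTS and TIMP genes in each sample (points) with the mean by time point (lines). Middle, FPKM of the 4 Timp genes. Right, the TIMP sum divided by the MMP sum on a log axis, with a dashed line at 1; the embryonic and P5 samples lie between 0.378 and 0.518 and the 12wk samples at 5.90 and 5.65.

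Between neighbouring time points few members were called before birth. In E16.5 against E14.5, Mmp16, Adamts17 and Adamts19 were lower (0.983% of all genes) and Mmp23 was higher, with Adamts19 not called after rescaling (0.751% of all genes lower and 3.64% higher). In E18.5 against E16.5 limma called 0 members (2.94% of all genes in either direction), with 12 at an unadjusted p below 0.05, 0 called after rescaling (2.48% of all genes) and 0 called by voom (5.8% of all genes). Without E16.5 replicate 1 there were 2 calls, and without E18.5 replicate 1 there was 1. In P5 against E18.5 Adamts1 and Adamts4 were lower (2.97% of all genes) and 0 members higher (2.07% of all genes), with 0 called after rescaling (1.79% of all genes lower and 2.37% higher) or without E18.5 replicate 1. At an unadjusted p below 0.05 there were 11 members as deposited and 13 rescaled, voom called 6 (9.65% of all genes), and a pseudocount of 0.1 gave 7 (7.94% of all genes). In 4wk against P5, 15 were lower (22.1% of all genes) and Mmp3 was higher (2.19% of all genes), 16 calls in all, or 26 with a pseudocount of 0.1 (39.4% of all genes). After rescaling 12 were lower (8.72% of all genes), Adamts5, Adamts9 and Adamts17 being lost, and Adamts2 joined Mmp3 as higher (6.37% of all genes). In 12wk against 4wk Mmp3, Mmp14, Adamts9 and Adamts12 were lower (2.48% of all genes) and Mmp9 and Timp3 were higher, and the same 6 were called after rescaling (3.24% of all genes lower and 3.62% higher).

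Genes that work with these enzymes were taken from 4 lists. Their counts stand beside 38% of all genes lower and 5.58% higher as deposited, and 14.7% lower and 13.8% higher rescaled. Of 14 tested matrix substrates, 10 were lower in the adult than in the embryo as deposited and 9 after rescaling, and 0 were higher, with a median log2 fold change of -3.49. The largest falls were those of Fbn2, a fibrillin of embryonic microfibrils (22.8 FPKM in the embryo and 0.106 FPKM in the adult, log2 fold change -4.37), Col1a1 (312 and 19.2 FPKM, -4.27) and Vcan, the proteoglycan versican (42.9 and 1.24 FPKM, -4.20). Dcn and Bgn, small proteoglycans, were not called, with 219 and 67.2 FPKM in the adult. Of 9 tested activators of proteinases, 4 were lower on both scales and 0 higher, the deposited share being near that of all genes, led by Plat, the tissue plasminogen activator (39.2 and 3.59 FPKM, -3.13), Pcsk6, a proprotein convertase (19.9 and 2.04 FPKM, -2.89), and Bmp1, the procollagen C-proteinase (31.2 and 4.98 FPKM, -2.40). Furin, which activates membrane-type MMPs inside the cell, was at 21.5 and 17.4 FPKM and was not called.

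The list of other inhibitors also holds ADAMTS-like genes, whose action on proteinases was not examined. Of its 11 tested genes, 4 were lower as deposited, a share near that of all genes, and 3 rescaled. They were led by Serpine2, an inhibitor of serine proteinases (59.6 and 5.25 FPKM, log2 fold change -3.29), Reck, a membrane-anchored inhibitor of MMPs (14.9 and 1.34 FPKM, -2.73), and Papln, a relative of ADAMTS proteins (5.41 and 0.652 FPKM, -1.92). The single gene of this list that was higher as deposited was Adamtsl2, 1 of the ADAMTS-like genes (0.185 and 1.92 FPKM, 1.22). After rescaling Cst3 was higher too, both named after their values were seen. Of 8 ADAM sheddases, membrane relatives that release proteins from the cell surface, 5 were lower as deposited and 3 rescaled, namely Adam12 (20.1 and 0.252 FPKM, -4.04), Adam19 (17.8 and 1.01 FPKM, -3.14) and Adam33 (3.59 and 0.125 FPKM, -1.97).

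Markers of other cell types moved over the same ages. Counts of called markers stand beside 38% of all genes lower and 5.58% higher as deposited, and 14.7% lower and 13.8% higher after rescaling. In whole glands, fewer cells of a type and less RNA per cell cannot be told apart. The summed level of 7 mesenchyme markers was 232 to 383 FPKM in the embryo, 163 and 167 FPKM at P5, and 36.1 to 77.5 FPKM in the adult, and 6 of the 7 were lower in adult against embryo on both scales. The sum of 6 endothelial markers was 112 to 141 FPKM in the embryo and 26.1 to 46.2 FPKM in the adult, with 6 of 6 lower as deposited and 3 after rescaling. The sum of 6 macrophage markers was 45.6 to 90.3 FPKM in the embryo and 69.2 to 99.0 FPKM in the adult, with 1 of 6 higher as deposited and 4 after rescaling. The sum of 7 markers of salivary epithelium was 316 to 1730 FPKM and 962 to 1240 FPKM, with 2 of 7 higher as deposited and 3 rescaled. The part of these cell types in the levels of the proteinases and inhibitors was not tested.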

How the data were processed

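RNA of 13 submandibular gland samples was analysed. By the study's methods and the submitters' processing notes, single-end reads were aligned by the authors to the mm9 genome (TopHat2 2.0.13, Bowtie2 2.2.6), those that mapped to 1 place and 1 gene were counted with featureCounts (version not given in the sources used here), and FPKM per gene were deposited. DESeq2 1.10.1 is named by the authors for normalization and tests, but the deposited FPKM had median-of-ratios factors (13039 genes) of 0.617 to 1.38. Reads per gene were recovered by finding for each gene a step of which its values are whole multiples within 0.001. Such a step was found for 20268 of the 23364 genes, and the others were given 0 reads. Because the step is chosen to fit, the match is no check of the recovered reads. A factor common to all counts of a gene would be lost.

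The 14650 genes that reached 1 FPKM in any sample were fitted as log2(FPKM + 1) with limma 3.58.1 in R 4.3.3 (eBayes with trend), by stage and by time point over all 13 samples, with Benjamini-Hochberg adjustment over all of them. Fold changes are on this scale, which understates those of low genes. Groups hold 2 or 3 samples a time point, which the methods call biological replicates. Alternatives were rescaling by the factors above, a pseudocount of 0.1, no filter or 1 FPKM in 2 samples, an adjusted p below 0.05, stages averaged over time points, the replicate number as a block, voom on recovered reads with the same factors, each sample left out, and, chosen after seeing the data, 12wk as the only adult age. Code was tested on simulated data. Members and lists were chosen with earlier results of these data known. Values in each sample, or ranges, are given for members called in a stage comparison or with a time point mean of at least 10 FPKM, and for each partner list the 3 largest fold changes called on both scales. Positions and exon overlaps are from GENCODE vM1 (NCBIM37). Python 3.11.15, numpy 2.4.6, pandas 2.3.3 and matplotlib 3.10.9 were used.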

Additional observations from a re-analysis of the deposited data

Results flagged for a closer look

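Of 52 groups of 4 or 7 samples checked for a sample far from the rest, 3 were flagged. Chance gives about 1 in 20, so about as many would be flagged by chance. The groups pool time points, so that rate is only approximate. Mmp2 was at 77.8 FPKM in E14.5 replicate 1, against 31.2 to 43.5 FPKM in the other 6 embryonic samples. The same library had the highest level of Mmp11 (35.1 FPKM) and of the cartilage gene Col2a1 (142 FPKM). Adamts18 was at 0.425 FPKM in 4wk replicate 1, against 0.207 to 0.227 FPKM in the other adult samples, a value that rests on 12 reads in the library with the fewest reads. Timp1 was at 3.26 FPKM in E18.5 replicate 2, against 6.48 to 10.2 FPKM in the other embryonic samples.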

How the results depend on the processing

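Of 232 alternative counts of called members, 207 lay within 1.5 times the reported one. For the pseudocount, rescaling and voom, the share of all genes is given in brackets. For the other settings, here and in the next paragraph, no such share is given. Their counts show how stable the number of calls is, and not whether members differ from all genes. With a pseudocount of 0.1, 1 member was higher at P5 against embryo (5.72%) and 25 were lower in adult against P5 (33.5%). That pseudocount called 1 in E18.5 against E16.5 (4.22%), 7 in P5 against E18.5 (7.94%) and 26 in 4wk against P5 (39.4%). With rescaling, 2 members were higher in adult against P5 (6.05%) and 0 were called in P5 against E18.5 (4.16%). With voom, 2 members were higher at P5 against embryo (11.1%), 2 in adult against P5 (8.15%) and 4 in adult against embryo (18%). Voom called 6 in P5 against E18.5 (9.65%). With stages averaged over time points 1 was higher in adult against P5, and with 12wk as the only adult age 1 was higher there and 1 in adult against embryo, Timp3 in both. Leaving out each sample in turn gave 0 to 1 higher and 3 to 9 lower at P5 against embryo, 0 to 1 higher and 13 to 16 lower in adult against P5, and 1 to 2 higher and 20 to 21 lower in adult against embryo. It gave 3 to 6 called in E16.5 against E14.5, 0 to 2 in E18.5 against E16.5, 0 to 3 in P5 against E18.5, 16 to 17 in 4wk against P5 and 6 to 7 in 12wk against 4wk. The sign of adult against embryo turned for Mmp15 (0.31 rescaled, 0.30 with voom) and Timp2 (0.39 and 0.42), and for Mmp9 (-0.29 to 0.19 and 0.10) and Mmp19 (-0.42 to 0.18 and 0.17), of which no call was made. The causes of changes with the pseudocount, voom or averaging were not tested.

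On average the replicate numbers did not pair the samples. The mean correlation of deviations was -0.0158 for equal numbers, with single pairs from -0.352 to 0.273. Deviations of 2 samples from their time point mean mirror each other. The mean of 0.0118 for different numbers therefore follows from the first and is no separate comparison. With the number as a block, 5 members were lower at P5 against embryo, and 20 were lower and 2 higher in adult against embryo, Mmp17 (-0.98) being the only one lost there. Low depth at 4wk limits members near 0, where a few reads decide the level, and 2 samples a time point limit the estimate of spread.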

Other observations

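Ratios between a proteinase and its partner, which no scaling of samples changes, moved with age. Adamts2 divided by Col1a1, the procollagen chain its product acts on, was 0.017 to 0.036 in the embryo, 0.0293 and 0.0343 in P5 samples, 0.407 and 0.488 in 4wk samples, and 0.954 and 1.21 in 12wk samples. Timp2 divided by Mmp14, which form a complex that activates pro-MMP2, was 0.413 to 0.61 in the embryo, 0.673 and 0.727 in P5 samples, 2.52 and 2.38 in 4wk samples, and 9.99 and 8.86 in 12wk samples. Mmp14 divided by Mmp2 was 1.65 to 3.59 in the embryo, 1.25 and 1.20 in P5 samples, 0.779 and 0.936 in 4wk samples, and 0.428 and 0.435 in 12wk samples. These ratios were picked after the levels were seen and were not tested. All 46 members together made up 0.121% of the summed FPKM at E14.5, 0.0171% at 4wk and 0.0309% at 12wk.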
